A study of Homo sapiens with 6 samples.

Results

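The subunits of the mitochondrial respiratory chain and of ATP synthase that are encoded in the nucleus were compared between Cal27 cells with and without a hairpin against interleukin-1β. A list of 49 subunit genes was used, with 22 genes named for complex I, 4 of complex II, 7 of complex III, 8 of complex IV and 8 of ATP synthase. Members were found on the array as probe sets (groups of short probes for 1 transcript) annotated with exactly 1 gene symbol, and the probe set with the highest mean over the 6 arrays stood for its gene. This gave a value for 43 of the 49 genes, from 94 probe sets, out of 19775 genes with such a probe set. NDUFA4 (now known as a subunit of complex IV), NDUFC2, NDUFS8, SDHB, UQCRFS1 and UQCRH had no probe set of their own.

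Cal27 is a cell line established from a squamous cell carcinoma of the human tongue. One group was transduced with a lentivirus for a short hairpin RNA against IL-1β (LV-shIL-1β) and the control group with one for a scrambled hairpin (LV-shNC), and stable cells were selected with 2 µg/mL puromycin for 2 weeks. Total RNA (6 µg) was labelled for Affymetrix Human Genome U133 Plus 2.0 arrays, 3 per group. Whether the arrays within a group stand for separate cultures or separate transductions is not given in the sources used here. The p-values therefore cover the array-to-array spread, which could be purely technical.

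The respiratory chain passes electrons from NADH and succinate to oxygen through complexes I to IV of the inner mitochondrial membrane. Complexes I, III and IV pump protons as they do so, and ATP synthase lets the protons flow back and makes ATP. Most subunits are encoded by nuclear genes scattered over many chromosomes, a core set by mitochondrial DNA, and the complexes need their parts in fixed ratios. ATP synthase has a catalytic head (F1), a rotating central stalk and a peripheral stalk that keeps the head from turning. ATP5PO encodes the oligomycin sensitivity conferring protein, which ties the peripheral stalk to the head, and ATP5PF encodes coupling factor 6 of the same stalk. Both genes lie on chromosome 21, and the other 6 ATP synthase members on other chromosomes.

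IL1B, the target of the hairpin, had signals of 1569, 1569 and 1596 in LV-shIL-1β cells, against 2677, 2611 and 2494 in LV-shNC cells. Its log2 fold change was -0.72 ± 0.04 (SE; limma, adjusted p = 2.45e-05), and a second probe set gave -0.74. Array medians lay between 18.4 and 18.9. Over the kept probe sets, arrays of 1 group correlated with r of at least 0.995, and arrays of different groups with at most 0.994. The log2 ratio of 3′ to 5′ probe sets, a sign of RNA integrity, was 0.39 ± 0.05 in LV-shIL-1β and 0.41 ± 0.13 in LV-shNC cells for ACTB, and for GAPDH 0.04 ± 0.01 in LV-shIL-1β and -0.02 ± 0.03 in LV-shNC cells, without overlap (SD, n = 3 each). KRT6A, KRT17 and TP63 of the list used for squamous epithelium had no probe set of their own. The 5 other genes of that list gave mean signals of 1349 or more in both groups. Their summed signal was 19545 to 19939 in LV-shIL-1β cells, against 21496 to 22324 in LV-shNC cells, and KRT5 and KRT14, keratins of basal cells, fell by 0.32 and 0.35 on the log2 scale. SFN, CDH1 and EPCAM, the other 3, had 0.01, 0.04 and 0.06 and did not pass. The summed signal of 5 fibroblast markers was 63.1 to 65.2 in LV-shIL-1β cells and 85.5 to 95.7 in LV-shNC cells. Of these 5, LUM and COL1A2 lay below the filter signal of 18.6 on every LV-shIL-1β array and entered the test only through LV-shNC, so their lower values there are given as a description. The summed signal of 4 leukocyte markers was 92.4 to 96.1 in LV-shIL-1β and 68.8 to 74.8 in LV-shNC cells. Of these, CD14 was called higher (0.51, limma, adjusted p = 0.00453). PTPRC, CD3E and MS4A1 did not pass the filter and overlapped between the groups. For 4 endothelial markers the sum was 60.5 to 62.1 in LV-shIL-1β and 62.0 to 65.4 in LV-shNC cells, with no call. None of these markers was at 0. Their part in the results below was not tested.

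Of the 43 subunit genes, 3 fell in LV-shIL-1β cells and 0 rose. ATP5PO fell by 24.9%, NDUFB5 by 21.9% and ATP5PF by 17.1%. In RNA from a whole culture, a lower level in every cell and a loss in some of the cells cannot be told apart. The other 40 did not pass the test, and their log2 fold changes lay between -0.15 and 0.12. The 3 calls make 6.98% of the members, beside 7.06% of all 27546 kept probe sets called in either direction, 3.68% higher and 3.37% lower. Counted once per gene, 8.53% of 12311 kept genes were called, 4.03% higher and 4.5% lower. The share of subunit genes called was thus near that of the array as a whole. Among the brighter probe sets, those with a mean signal above the 75th percentile of all values, 11.3% were called. The member median was -0.02 on the log2 scale, against 0.01 over all kept probe sets. All 43 members had mean signals of at least 183 in both groups, well over the filter at 18.6, so none entered through 1 group alone.

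The 40 members without a call were measured tightly. The 95% interval of the log2 fold change lay within 0.3 of 0 for 39 of them and within 0.2 of 0 for 33. NDUFA5, an accessory subunit of complex I, was the exception, with signals of 217, 192 and 141 in LV-shIL-1β cells, against 165, 217 and 190 in LV-shNC cells and an interval of -0.40 to 0.26. The median standard error was 0.04 for members and 0.08 for all kept probe sets, and the median size of the log2 change was 0.05 for members and 0.09 for all kept probe sets. The 2 groups of arrays did not overlap for 17 members (39.5%), 6 of them higher and 11 lower in LV-shIL-1β cells, beside 27.9% of all kept probe sets (15.3% higher and 12.6% lower). All 43 members were among the brighter probe sets named above. The standard errors, sizes of change and overlap were not compared within that brighter set. An unadjusted limma p under 0.05 was found for 11 members, the 3 called ones among them. The interval thus excluded 0 for 8 of the 40 members without a call. The share of all kept probe sets with such a p was not counted, so these counts are given as a description.

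**Figure D1:**
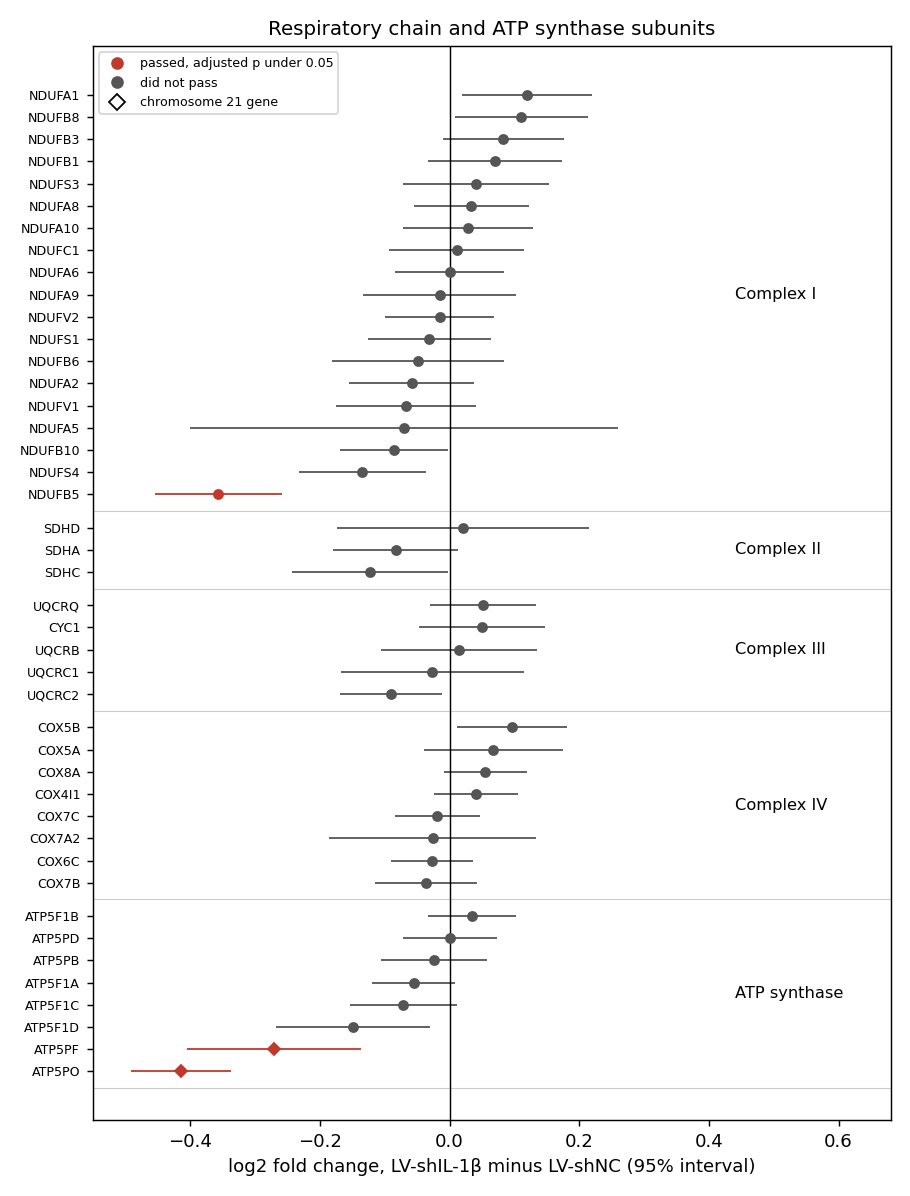
Log2 fold change of each of the 43 subunit genes, LV-shIL-1β minus LV-shNC, with 95% intervals from limma, grouped by complex. Red marks the 3 genes that passed (NDUFB5, ATP5PF and ATP5PO), diamonds mark genes on chromosome 21, and the other 40 genes lie between -0.15 and 0.12.

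ATP synthase held 2 of the 3 calls among its 8 members. ATP5PO had signals of 2077, 2222 and 2152 in LV-shIL-1β cells, against 2857, 2880 and 2853 in LV-shNC cells. Every LV-shIL-1β array lay below every LV-shNC array, and the LV-shNC arrays were nearly equal. The means were 2150 ± 73 in LV-shIL-1β and 2863 ± 15 in LV-shNC cells (SD, n = 3 each), a log2 fold change of -0.41 ± 0.03 (SE; 95% interval -0.49 to -0.34; limma, adjusted p = 0.000261). A second ATP5PO probe set with a lower signal, 423 ± 17 in LV-shIL-1β and 537 ± 48 in LV-shNC cells, gave -0.34 (adjusted p = 0.018).

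ATP5PF had signals of 1447, 1477 and 1332 in LV-shIL-1β cells, against 1564, 1791 and 1782 in LV-shNC cells. The groups did not overlap, and the first LV-shNC array lay nearest to the LV-shIL-1β arrays. The log2 fold change was -0.27 ± 0.06 (SE; 95% interval -0.40 to -0.14; limma, adjusted p = 0.0272), and ATP5PF had no second probe set. Leaving out 1 array ended this call in 4 of 6 cases, which were LV-shIL-1β array 2 (-0.30, adjusted p = 0.0723), LV-shIL-1β array 3 (-0.23, adjusted p = 0.0929), LV-shNC array 2 (-0.24, adjusted p = 0.0939) and LV-shNC array 3 (-0.24, adjusted p = 0.0946).

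**Figure D2:**
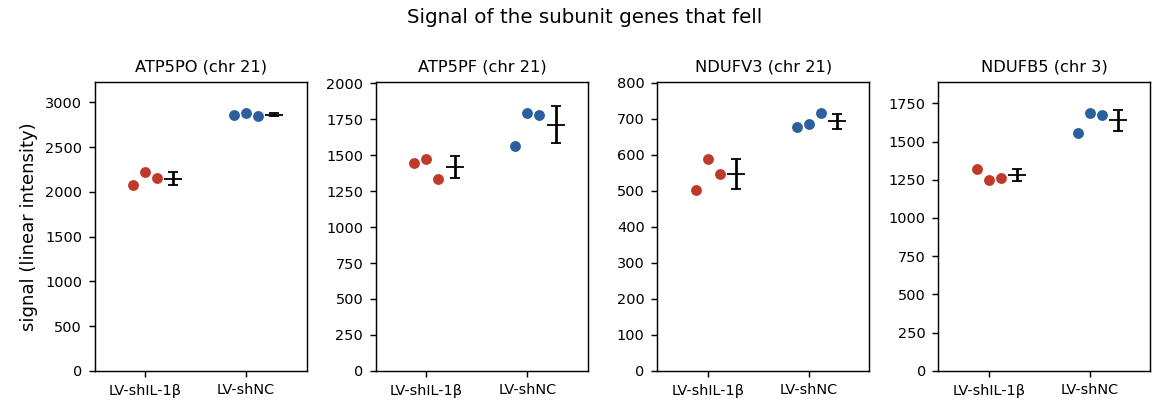
Signal (linear intensity) on each array for the 4 subunit genes that fell, LV-shIL-1β in red and LV-shNC in blue, with group mean ± SD beside the points. The groups are separate in each panel, most widely for ATP5PO, with means of 2150 in LV-shIL-1β and 2863 in LV-shNC cells.

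The other 6 ATP synthase members did not pass, with log2 fold changes between -0.15 and 0.03 and a median of -0.04. The head subunits α (ATP5F1A) and β (ATP5F1B, the catalytic one) had -0.06 and 0.03. The central stalk subunits γ (ATP5F1C) and δ (ATP5F1D) had -0.07 and -0.15. ATP5PB and ATP5PD, subunits b and d of the peripheral stalk that also holds ATP5PO and ATP5PF, had -0.02 and 0.00. ATP5PB signals were 3272, 3532 and 3387 in LV-shIL-1β cells, against 3410, 3394 and 3558 in LV-shNC cells, and ATP5PD signals were 2877, 3048 and 2969 in LV-shIL-1β cells, against 2979, 2958 and 2952 in LV-shNC cells. Both overlapped between the groups. ATP5F1D came next after the 3 called members in the order of fold changes, with 542, 579 and 570 in LV-shIL-1β cells, against 664, 613 and 600 in LV-shNC cells (-0.15 ± 0.05, limma, adjusted p = 0.128). Its interval, -0.27 to -0.03, overlapped that of ATP5PF, while the interval of ATP5PO lay below those of the 6 others.

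To set the chromosome 21 subunits against the rest of their complex on the same array, the log2 signal of each gene was expressed relative to its LV-shNC mean, and the mean of the other 6 was subtracted from the mean of ATP5PO and ATP5PF. This gave -0.28, -0.26 and -0.35 on the LV-shIL-1β arrays, against -0.08, 0.05 and 0.03 on the LV-shNC arrays. The difference between groups was -0.30 on the log2 scale, with SDs of 0.05 in LV-shIL-1β and 0.07 in LV-shNC cells. No test was made of this difference, because the genes were chosen with earlier results of these data known.

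**Figure D3:**
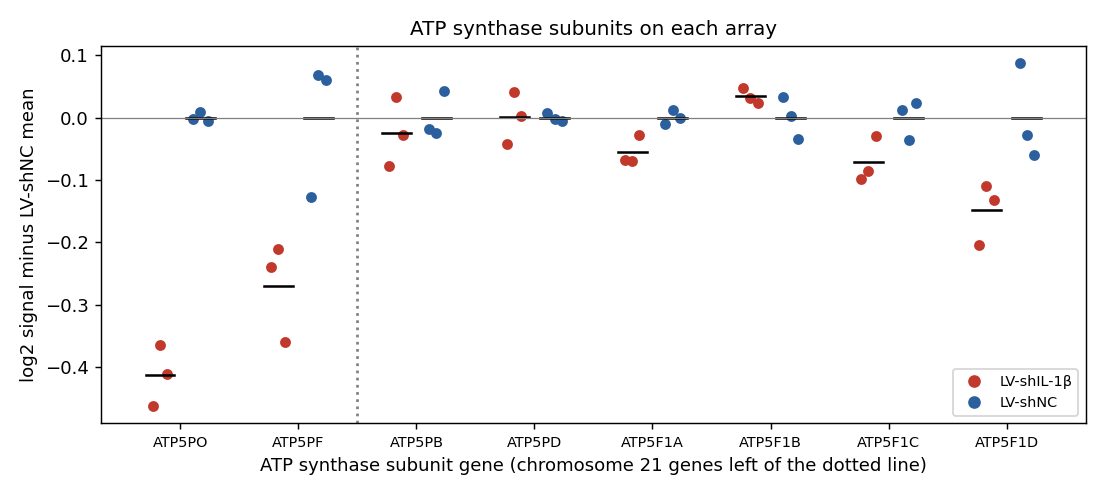
Log2 signal of the 8 ATP synthase genes on each array, relative to the LV-shNC mean of each gene, with LV-shIL-1β arrays in red and LV-shNC arrays in blue and a bar at each group mean. ATP5PO (-0.41) and ATP5PF (-0.27), left of the dotted line, lie below the other 6, which range from -0.15 to 0.03.

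The stretch upstream of the start site is shown for ATP5PO, for NDUFV3, the chromosome 21 gene of complex I described below, and for SDHD, a member that did not pass and, like ATP5PF, holds all 3 motifs named here. Each is the 150 bases before the RefSeq start site (assembly GRCh38.p14), read 5′ to 3′ on the strand of the gene, except that SDHD is given as the 116 bases that lie outside its neighbour TIMM8B. The stretch before the first ATP5PF start lies within GABPA and is not shown. Capitals mark the cores CCGGAAG (ETS factors such as GABP), GCATGCG (NRF1) and AGATGGC (YY1) on either strand, factors known for their sites at genes of the respiratory chain. The run CGCATGCG holds the NRF1 core on both strands, as 2 overlapping matches.
ATP5PO, chr21:33915805-33915954, minus strand: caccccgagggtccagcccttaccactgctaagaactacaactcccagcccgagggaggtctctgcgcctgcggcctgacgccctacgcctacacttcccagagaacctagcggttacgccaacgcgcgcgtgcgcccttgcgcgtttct
NDUFV3, chr21:42893159-42893308, plus strand: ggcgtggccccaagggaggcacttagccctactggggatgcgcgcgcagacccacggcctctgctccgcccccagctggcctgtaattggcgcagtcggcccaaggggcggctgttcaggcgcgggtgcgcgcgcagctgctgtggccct
SDHD, chr11:112086757-112086872, plus strand: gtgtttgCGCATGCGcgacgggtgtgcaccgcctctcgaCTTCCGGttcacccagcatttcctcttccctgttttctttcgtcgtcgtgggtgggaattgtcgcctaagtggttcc
Within 300 bases around the start (250 before and 50 after), ATP5PF and SDHD held all 3 motifs, ATP5PO held a YY1 core outside the stretch shown, and NDUFV3 held none of them. The YY1 core of SDHD also lay outside the stretch shown. For ATP5PF the window was set around the first of its 2 starts and lies within GABPA, and the second start was not searched. A promoter was listed for 36 of the 43 members. The ETS core was in 10 of these 36 (27.8%, beside 10.7% of 27305 promoters), the NRF1 core in 6 (16.7%, beside 4.13%) and the YY1 core in 8 (22.2%, beside 5.61%). The 27305 promoters were not limited to genes that were measured or kept here, while all members were kept. Members with a motif included called and uncalled genes. The matches describe the letters in these windows and were not tested against the expression values.

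ATP5PF overlaps at its 5′ end with GABPA on the opposite strand, which encodes the DNA-binding subunit of GABP. The RefSeq start of GABPA lies 82 bases inside ATP5PF, counted from the first of the 2 ATP5PF starts. The second ATP5PF start lies 68 bases beyond the GABPA start, and from there the genes do not overlap. The brighter GABPA probe set had 86.6, 59.6 and 61.1 in LV-shIL-1β cells, against 62.9, 75.2 and 70.6 in LV-shNC cells (-0.03 ± 0.14, limma, adjusted p = 0.933). The other had 53.5, 51.6 and 50.2 in LV-shIL-1β cells, against 84.5, 87.2 and 67.9 in LV-shNC cells (-0.62 ± 0.10, limma, adjusted p = 0.00553). The 2 GABPA probe sets thus disagreed, the first overlapping between groups and the second not.

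Complex I, the NADH dehydrogenase, had 19 measured members, of which 1 fell and 18 did not pass (median log2 fold change -0.02). NDUFB5, an accessory subunit of the membrane arm encoded on chromosome 3, had signals of 1324, 1249 and 1265 in LV-shIL-1β cells, against 1559, 1685 and 1671 in LV-shNC cells. The groups were well apart, at -0.36 ± 0.04 (SE; 95% interval -0.45 to -0.26; limma, adjusted p = 0.00184), and NDUFB5 had no second probe set. NDUFA1, another accessory subunit of the membrane arm, had the highest fold change of all members, with 1672, 1855 and 1753 in LV-shIL-1β cells, against 1579, 1613 and 1664 in LV-shNC cells. Its groups were also separate, but at 0.12 ± 0.04 it did not pass (limma, adjusted p = 0.145). The other 17 lay between -0.13 (NDUFS4) and 0.11 (NDUFB8).

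Complex II, succinate dehydrogenase, had 3 measured members and no call. SDHC and SDHD, its membrane anchors, had the lowest and highest fold changes. SDHC had 696, 796 and 776 in LV-shIL-1β cells, against 825, 819 and 821 in LV-shNC cells (-0.12, limma, adjusted p = 0.214), with no overlap. SDHD had 402, 357 and 339 in LV-shIL-1β cells, against 318, 377 and 389 in LV-shNC cells (0.02), with overlap. SDHA, the flavoprotein, had -0.08.

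Complex III, the cytochrome bc1 complex, had 5 measured members and no call, from -0.09 for the core protein UQCRC2 to 0.05 for the small subunit UQCRQ. UQCRC2 had 1622, 1674 and 1585 in LV-shIL-1β cells, against 1727, 1732 and 1735 in LV-shNC cells, without overlap (limma, adjusted p = 0.164). Complex IV, cytochrome c oxidase, had 8 measured members and no call, from -0.04 (COX7B) to 0.10 (COX5B), both small nuclear-encoded subunits. COX5B had 1680, 1660 and 1657 in LV-shIL-1β cells, against 1497, 1606 and 1573 in LV-shNC cells, and did not overlap (limma, adjusted p = 0.166). COX7B overlapped, with 3280, 3235 and 3128 in LV-shIL-1β cells, against 3172, 3332 and 3384 in LV-shNC cells.

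More than 1 probe set was present for 27 members, and 36 of the 51 further probe sets, for 18 members, passed the filter. They were dimmer, with a median signal of 149 beside 1566 for the probe sets used. Of these 36, 1 rose and 1 fell. The one that fell was the second ATP5PO probe set. The one that rose belonged to NDUFS1, the large iron-sulphur subunit of complex I, with 50.6, 47.8 and 49.4 in LV-shIL-1β cells, against 37.9, 30.7 and 41.6 in LV-shNC cells (0.43, limma, adjusted p = 0.0423). The brightest NDUFS1 probe set, the one used above, had -0.03 (adjusted p = 0.716). The other 3 kept NDUFS1 probe sets had 0.38, 0.27 and 0.21 and did not pass (adjusted p = 0.0684, 0.194 and 0.193).

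A list of 32 further nuclear genes was examined in the same way. It held subunits and a few associated factors, ATP5IF1 and DMAC2L of ATP synthase among them. Of these genes, 29 passed the filter, with 1 higher, 1 lower and a median of -0.01. The lower one was NDUFV3, the complex I gene on chromosome 21, an accessory subunit of the NADH-oxidising module. It had 503, 589 and 548 in LV-shIL-1β cells, against 678, 685 and 715 in LV-shNC cells, without overlap (-0.34 ± 0.06, limma, adjusted p = 0.00935). A dimmer NDUFV3 probe set had -0.14 (adjusted p = 0.352). The higher one was NDUFA3, an accessory subunit of complex I, with 779, 866 and 810 in LV-shIL-1β cells, against 704, 662 and 665 in LV-shNC cells (0.27 ± 0.05, limma, adjusted p = 0.0139). NDUFA3 no longer passed without LV-shIL-1β array 2 (0.23, adjusted p = 0.0707), LV-shNC array 2 (0.26, adjusted p = 0.0586) or LV-shNC array 3 (0.26, adjusted p = 0.0572). Among both lists together, the 3 subunit genes on chromosome 21 that were measured all fell. Of the 69 kept genes of these lists on other chromosomes, 1 rose (NDUFA3) and 1 fell (NDUFB5), with a median of -0.01. The 16 ATP synthase genes on other chromosomes, the c-ring and membrane subunits included, gave no call.

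Of 126 kept chromosome 21 genes, these 3 included, 55 fell (43.7%) and 0 rose, with a median log2 fold change of -0.22. Without the 3, 52 of 123 fell (42.3%), and the median was also -0.22. On the other chromosomes 4.10% of 12176 genes fell and 4.07% rose, with a median of 0.00. The fold changes of ATP5PF (-0.27), NDUFV3 (-0.34) and ATP5PO (-0.41) all lay below the chromosome 21 median of -0.22. That median covers called and uncalled genes, while these 3 were all called. The 95% intervals of ATP5PF (-0.40 to -0.14) and NDUFV3 (-0.48 to -0.21) included that median. The part of this chromosome-wide shift in the values of the 3 subunit genes was not tested. DNA copy number was not measured in these cells.

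Around ATP5PF, 6 of the nearest 12 protein-coding genes (6 on each side in RefSeq order) passed the filter, and 4 of them fell. These were C21orf91 (-0.46), MRPL39 (-0.39, a protein of the mitochondrial ribosome), APP (-0.22, the amyloid precursor protein) and ADAMTS1 (-0.46, a secreted metalloprotease), while GABPA and TMPRSS15 had -0.03 and -0.06. The GABPA value is that of its brighter probe set, and the other one had -0.62 (limma, adjusted p = 0.00553). TMPRSS15 was dim, with mean signals of 31.6 in LV-shIL-1β and 33.2 in LV-shNC cells. Around ATP5PO, 8 of 12 passed the filter and 6 fell. These were GART (-0.30, purine synthesis), SON (-0.44, a splicing cofactor), CRYZL1 (-0.43), ITSN1 (-0.54, an endocytic scaffold), SLC5A3 (-0.28, a myo-inositol transporter) and MRPS6 (-0.29, mitochondrial ribosome), while DONSON and SMIM11 had -0.27 and -0.13. The neighbours of NDUFV3 and NDUFB5 were examined after their values had been seen. Of 6 kept neighbours of NDUFV3, SLC37A1 (-0.35) and U2AF1 (-0.29) fell, and the median was -0.16. Of 10 kept neighbours of NDUFB5 on chromosome 3, 0 passed in either direction, and the median was 0.02. MRPL47, the gene next to NDUFB5, had 2096, 2344 and 2276 in LV-shIL-1β cells, against 2314, 2280 and 2319 in LV-shNC cells (-0.04).

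**Figure D4:**
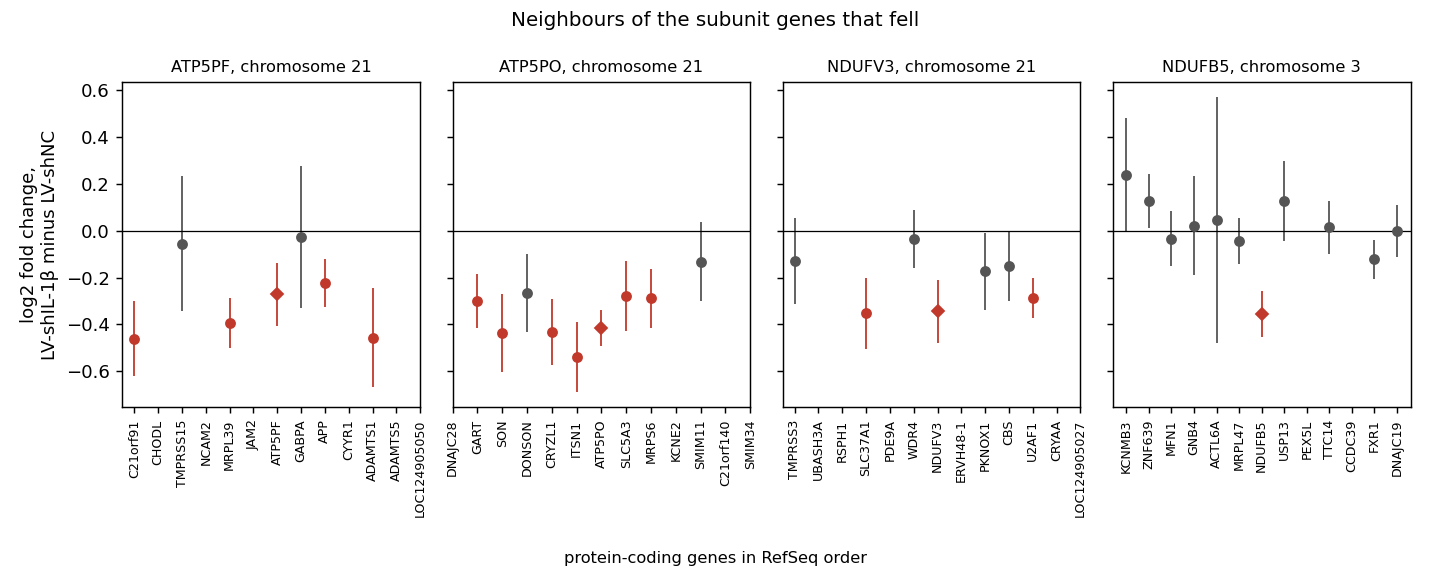
Log2 fold change, LV-shIL-1β minus LV-shNC, with 95% intervals, for each subunit gene that fell (diamond) and its 6 nearest protein-coding genes on either side that passed the filter, in RefSeq order. Red marks calls: 4 of 6 neighbours of ATP5PF, 6 of 8 of ATP5PO, 2 of 6 of NDUFV3 and 0 of 10 of NDUFB5.

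The genes that build and feed the complexes were described from further lists. Of 15 kept complex I assembly factors, NDUFAF8 rose (0.25, adjusted p = 0.0388) and TMEM126B fell (-0.18, adjusted p = 0.0206). Both calls depended on the probe set. The mean over the NDUFAF8 probe sets was 0.08 (adjusted p = 0.555), and the TMEM126B probe set of largest variance gave 0.44 (adjusted p = 0.0313). Of 20 kept complex IV assembly factors, COA1 fell (-0.22, adjusted p = 0.0364). Leaving out any 1 of the 6 arrays ended this call, and the mean over the COA1 probe sets was 0.02. None of 10 assembly factors of complexes II and III and none of 3 of ATP synthase (ATPAF1, ATPAF2 and TMEM70) passed. Of 14 genes for the mobile electron carriers, cytochrome c (CYCS) and the synthesis of coenzyme Q among them, none passed, and none of 6 genes for exchange of ADP, ATP and phosphate with the cytosol. Of 15 kept genes of pyruvate dehydrogenase and the TCA cycle, IDH2, the mitochondrial NADP-dependent isocitrate dehydrogenase, fell (-0.23, adjusted p = 0.0321). Leaving out any 1 array also ended the IDH2 call. Of the isoforms limited to some tissues, 2 passed the filter with no call, and the 13 genes of mitochondrial DNA had no probe set with a single symbol.

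Of 13 kept regulators of nuclear and mitochondrial transcription and mitochondrial DNA, 1 rose and 1 fell, and the median was 0.15. GABPB1, which pairs with GABPA in the factor GABP, had 225, 252 and 232 in LV-shIL-1β cells, against 154, 163 and 180 in LV-shNC cells (0.51 ± 0.07, adjusted p = 0.0035). Its other probe set had 0.15 (adjusted p = 0.154). TFB1M, which methylates the small ribosomal RNA of mitochondria, had 313, 335 and 329 in LV-shIL-1β cells, against 416, 402 and 393 in LV-shNC cells (-0.31 ± 0.05, adjusted p = 0.00705), and a second probe set of similar signal gave -0.35. A dim one, with mean signals of 19.0 in LV-shIL-1β and 18.9 in LV-shNC cells, gave 0.01 (adjusted p = 0.977), and the mean over the TFB1M probe sets did not pass (-0.20, adjusted p = 0.0559). NRF1, YY1 and TFAM, factors of nuclear and mitochondrial transcription, had 0.10, 0.10 and 0.23 and did not pass.

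**Figure D5:**
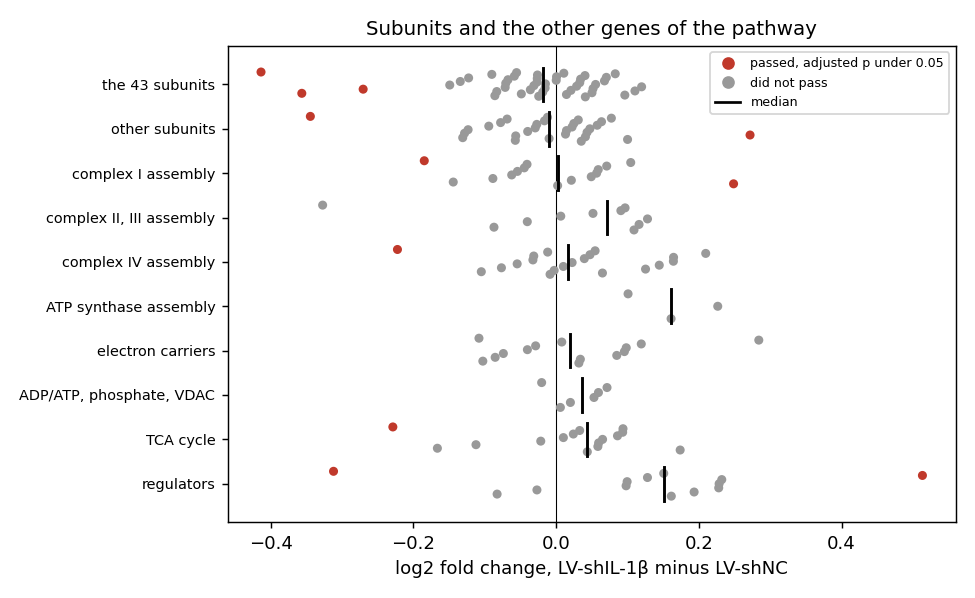
Log2 fold change of each kept gene, LV-shIL-1β minus LV-shNC, for the 43 subunits and the other lists of the pathway, with a black bar at each median. Calls (red) are 3 of 43 subunits, and at most 2 genes in any other list, among them GABPB1 at 0.51.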

How the data were processed

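Gene expression was measured on 6 Affymetrix U133 Plus 2.0 arrays, 3 of LV-shIL-1β and 3 of LV-shNC cells, with groups taken from the sample labels. The authors deposited linear intensities for 54675 probe sets. MAS5 is named, without a version, in the submitters' processing notes. Its settings and any scan dates are not stated in the labels or methods. Steps applied across arrays would narrow the spread between them.

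Intensities were put on the log2 scale with no further normalization. The 62 array controls were left out, and 27546 of the remaining 54613 probe sets were kept, those exceeding the overall median signal (18.6) on 3 or more arrays. A linear model was fitted to each kept probe set with limma 3.58.1 (R 4.3.3), variances were moderated by eBayes with trend, and the two-sided p-values for LV-shIL-1β minus LV-shNC were adjusted by Benjamini-Hochberg over all kept probe sets, with a threshold of 0.05. The study's own criterion, a fold threshold with a detection P value, was not used. None of the subunit genes called here reached the fold threshold that the paper gave for these cells. The largest change among them was the log2 fold change of -0.41 for ATP5PO. Precision is limited by the number of arrays.

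In the platform annotation 41097 probe sets had 1 symbol, 1801 had several and 11777 had none. Of the single symbols, 41043 were found in RefSeq by identifier, and 0 changed. Gene order came from the RefSeq table of GRCh38.p14, and the files name no genome build. Promoter sequences came from RefSeq.

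The members and all lists were chosen with earlier results of these data known. Named were IL1B, the ATP synthase members, every member past the threshold, the highest and lowest member of each complex, called genes of the other lists, NDUFV3, and the neighbours of the chromosome 21 subunits. NDUFA5, NDUFS1, NDUFS4, NDUFB8, SDHA, GABPA, KRT5, KRT14, SFN, CDH1, EPCAM, LUM, COL1A2 and the uncalled regulators, neighbours and assembly factors were named after their values were seen, as were the neighbours of NDUFB5 and NDUFV3. SDHD was chosen for display after the motif search. The alternatives covered the log offset, filter, normalization, variance model, test, replicate number as a block, arrays left out and choice of probe set. Lists of markers were compared by their summed signals. The same-numbered arrays of the 2 groups were checked for shared deviations.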

Additional observations from a re-analysis of the deposited data

How the results depend on the processing

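ATP5PO and IL1B kept their direction and their call in all 18 alternatives run, with the highest adjusted p at 0.0373 for ATP5PO. NDUFB5 and NDUFV3 lost theirs in 1 each, the methods' t-test (adjusted p = 0.0639 and 0.124). By this is meant an equal-variance t-test on log2 signal, adjusted by Benjamini-Hochberg over the kept probe sets, with no fold threshold. The paper names Student's t-test among its general statistics, and its criterion for the arrays was a different one. ATP5PF, at -0.27, lost its call without the mean-dependent trend (adjusted p = 0.0898) and in the methods' t-test (0.198), and with single arrays left out it ranged from -0.33 to -0.23 (adjusted p 0.00743 to 0.0946). Over its 18 alternatives the adjusted p ran from 0.00743 to 0.198. The difference between the chromosome 21 and the other ATP synthase members ranged from -0.34 to -0.27 with arrays left out, and moved by less than 1 SD in every alternative run.

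The same-numbered arrays of the groups correlated with r of -0.39, -0.11 and -0.21 in their deviations, so the numbers do not pair the arrays. With the replicate number as a block, 568 probe sets were called (255 higher and 313 lower), against 1944 (1015 higher and 929 lower) without it, and ATP5PF, at -0.27, had an adjusted p of 0.0854.

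The count of calls over the array was 267 in the methods' t-test (106 higher and 161 lower, with 1 member, ATP5PO), 1348 without the trend and 2831 with array weights. With single arrays left out it ranged from 694 to 1807, lowest without LV-shIL-1β array 2 (271 higher and 423 lower), and 2 to 3 members were called. Centring on the kept probe sets, chosen after seeing the data, gave 861 higher and 1206 lower. NDUFS4 was also called under that centring and under quantile normalization, and NDUFS1 under both other choices of probe set. The cause of these shifts was not tested.

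SDHC, SDHD, UQCRC2, COX7B, ATP5PB and ATP5PD changed sign in some alternatives, and none of the 6 gained a call. With the mean of all probe sets of a gene, the values were -0.077 for SDHD, 0.010 for UQCRC2, 0.025 for COX7B, 0.065 for ATP5PB and -0.042 for ATP5PD, and TMEM126B and COA1 had 0.13 and 0.020. Under the largest-variance choice they were 0.26 for SDHC, 0.16 for UQCRC2, 0.15 for ATP5PB and -0.085 for ATP5PD, and TMEM126B had 0.44 with a call (adjusted p = 0.0313). Centring on the kept probe sets gave -0.0040 for SDHD and -0.024 for ATP5PD, and array weights -0.049 for SDHD. With single arrays left out, SDHD ranged from -0.068 to 0.077, ATP5PB from -0.053 to 0.0023 and ATP5PD from -0.020 to 0.022.

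Single arrays left out also ended other calls. COA1 and IDH2 lost theirs without any 1 of the 6 arrays (adjusted p up to 0.115 and 0.106), and NDUFAF8 without any but LV-shIL-1β array 1 (up to 0.162). NDUFAF8 lost its call in 10 of 17 alternatives in all, down to 0.080 (adjusted p = 0.555) with the mean of its probe sets. TFB1M lost its call in 3 of 17, also in the methods' t-test (0.062) and with the block (0.0642). SLC5A3 lost its call without LV-shIL-1β arrays 2 or 3 or LV-shNC arrays 2 or 3 (up to 0.158), TMEM126B without LV-shIL-1β array 2 or LV-shNC arrays 2 or 3 (up to 0.0972), APP without LV-shIL-1β arrays 2 or 3 or LV-shNC array 2 (up to 0.0973), ADAMTS1 without LV-shIL-1β arrays 1 or 3 or LV-shNC array 3 (up to 0.0658) and MRPS6 without LV-shIL-1β array 3 or LV-shNC array 3 (up to 0.0633).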

Other observations

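Of the 6 subunit genes with no probe set of their own, NDUFC2, NDUFS8 and UQCRH shared 6 probe sets with other symbols. None of these passed, with log2 fold changes between -0.08 and 0.16. The only one for UQCRH, the hinge protein of complex III listed together with UQCRHL, had 2727, 2751 and 2612 in LV-shIL-1β cells, against 2565, 2718 and 2620 in LV-shNC cells, with overlap. CYCS, the gene for cytochrome c, had 0.03 in its brightest probe set (adjusted p = 0.809), with 5431, 4769 and 4625 in LV-shIL-1β cells, against 4404, 5083 and 4986 in LV-shNC cells. A dim CYCS probe set had 86.9, 95.6 and 90.8 in LV-shIL-1β cells, against 67.6, 61.9 and 65.2 in LV-shNC cells (0.49, limma, adjusted p = 0.0035). Another dim CYCS probe set overlapped between the groups and did not pass (0.28, limma, adjusted p = 0.180). The probe sets of LRPPRC, which stabilises mitochondrial messenger RNA, had 0.13 (the brightest, adjusted p = 0.167), 0.21 (0.0416), 0.33 (0.0976) and 0.31 (0.0364).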
